A study of Homo sapiens with 38 samples.

Results

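The 10 BCL2 family genes described here are BCL2, BCL2L1, MCL1, BCL2A1, BCL2L11, BBC3, PMAIP1, BID, BAX and BAK1. They were chosen by name, and every line of 3 deposited peak lists that lay inside a gene's RefSeq record (build GRCh38.p14) plus 50 kb on each side was taken as belonging to its window. The 10 windows cover 1391 kb. They held 34 of 29009 GATA3 regions, 51 of 26205 BHLHE40 regions and 134 of 113570 H3K27ac regions. The series is ChIP-seq (chromatin immunoprecipitation followed by sequencing of the DNA pulled down) of bound proteins and histone marks. Its 38 samples fall into 19 groups of 2. All were Jurkat cells, a single established human T-cell leukaemia line, and all carry the label stimulated. The 3 groups used here (GATA3, BHLHE40 and H3K27ac) came from cells given a control lentivirus, named Ctrl_LV in the labels, and stimulated with 50 ng/ml PMA together with 500 ng/ml ionomycin. The time is 5 h in the sample labels and 2 h in the protocol. These agents together imitate the signal from the T-cell receptor. The other 16 groups were not analysed here. Some of them are labelled WCE in place of a target, and none of those is from Ctrl_LV cells. Each list stands for 2 samples and holds no value per sample, so the spread of replicates is unknown and no difference below was tested. Most values are set beside the same measure over all 20050 protein-coding genes or over the whole list.

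The family decides whether a cell opens the outer membrane of its mitochondria and dies by apoptosis. BCL2, BCL2L1 (BCL-XL), MCL1 and BCL2A1 (BFL-1) are anti-apoptotic and hold the other members in check. BCL2L11 (BIM), BBC3 (PUMA), PMAIP1 (NOXA) and BID are BH3-only proteins that sense stress or loss of survival signals, and BAX and BAK1 are the effectors that form the pores. In T cells, BCL2 and MCL1 are known for keeping resting and activated cells alive, and BIM for removing activated cells once a response ends. Jurkat stocks have been reported to carry inactivating mutations of BAX, which were not examined here. GATA3 is a zinc-finger factor that binds sequences with a GATA core. BHLHE40 is a basic helix-loop-helix factor, known as a repressor, that binds E-boxes and favours CACGTG. H3K27ac is acetylation of histone H3 that marks active promoters and enhancers.

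The sequence before the BAX start is shown first because both factors had a region over it and because it holds the motifs of both. All sequences are from RefSeq (GRCh38.p14) and are printed 5′ to 3′ in the direction of the gene. Capitals mark matches to CACGTG and to GATAA or its reverse complement TTATC. A match is a description of letters and not a site.
BAX, chr19:48954625-48954874, plus strand: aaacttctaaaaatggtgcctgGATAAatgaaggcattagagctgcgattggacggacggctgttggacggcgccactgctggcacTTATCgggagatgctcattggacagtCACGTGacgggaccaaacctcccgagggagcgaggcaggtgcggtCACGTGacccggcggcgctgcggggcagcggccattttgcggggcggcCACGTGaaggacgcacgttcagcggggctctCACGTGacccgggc
PMAIP1 and BCL2A1 are shown beside it: each had a BHLHE40 region over its start, and neither stretch has a capital. The BHLHE40 summit lay 93 bp before the start at BCL2A1. At PMAIP1 it lay 975 bp after the start, outside the printed stretch.
PMAIP1, chr18:59899746-59899995, plus strand: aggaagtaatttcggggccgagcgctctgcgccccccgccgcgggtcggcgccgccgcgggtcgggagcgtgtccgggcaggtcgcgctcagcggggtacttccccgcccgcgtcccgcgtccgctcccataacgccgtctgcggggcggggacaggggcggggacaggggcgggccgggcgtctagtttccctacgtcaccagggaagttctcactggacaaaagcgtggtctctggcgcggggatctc
BCL2A1, chr15:79971197-79971446, minus strand: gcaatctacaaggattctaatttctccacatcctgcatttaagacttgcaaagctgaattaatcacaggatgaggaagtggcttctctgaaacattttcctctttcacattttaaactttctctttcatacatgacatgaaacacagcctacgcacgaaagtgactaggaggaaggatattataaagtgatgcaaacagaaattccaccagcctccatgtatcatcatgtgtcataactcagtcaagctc
CACGTG also occurs before a start of BBC3 and of BID, shown as 30 bases around the match.
BBC3, chr19:47232882-47232911, minus strand: atggggagatttCACGTGagatatagatta
BID, chr22:17774072-17774101, minus strand: ttgtgtcctctcCACGTGgcctggggattc

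Most starts of the 10 genes carried H3K27ac and BHLHE40, and fewer carried GATA3. Starts were those of the gene's RefSeq promoter entries. A region was counted as over the start when it overlapped the stretch from 250 bases before to 50 bases after any of them. BCL2 and BBC3 have 1 entry each, whose start lies inside the record and not at its end. H3K27ac lay over the start of 9 of the 10 genes, against 49.1% of all protein-coding genes, and BBC3 was the exception. Widening the stretch to 1 kb on each side gave the same count of 9, against 55.3% of genes. BHLHE40 lay over 7 starts (BCL2L1, MCL1, BCL2A1, BCL2L11, PMAIP1, BID and BAX), against 44.6% of genes. GATA3 lay over 4 (BCL2L1, MCL1, PMAIP1 and BAX), against 19.0%. Those 4 starts had all 3 targets, a state found at 17.6% of genes, and BBC3 had none of the 3, as did 47.4% of genes. Among the 9841 genes with H3K27ac over the start, 84.5% had BHLHE40 there and 37.1% had GATA3 there, beside 7 and 4 of the 9 family genes with the mark. All 7 starts with BHLHE40 also had H3K27ac, a pair found at 41.5% of genes, and no start had GATA3 without BHLHE40. That is also the usual state over all genes: of the 3813 with GATA3 over the start, 3523 had all 3 targets. MCL1 had no entry among the RefSeq promoters, and for it 250 bases on each side of both ends of its record were used.

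Signal values over the starts differed widely within a list. The signal value is the authors' measure of a peak's enrichment, its reference level is not given, and values of different lists cannot be compared. BAX had the highest BHLHE40 value over a start, 27.9, which ranked 1558 of 26205. MCL1 followed with 24.6, BCL2L1 with 18.8, BCL2A1 with 11.6, BCL2L11 with 11.4, PMAIP1 with 8.85 and BID with 5.80. The BHLHE40 list as a whole had a median of 9.35, so 5 of the 7 were above it. For GATA3 the values were 14.6 at MCL1, 10.8 at BAX, 8.95 at PMAIP1 and 6.37 at BCL2L1, beside a list median of 11.2. For H3K27ac, BAX (8.71), BCL2L1 (8.54), MCL1 (7.64) and BCL2A1 (6.96) stood above PMAIP1 (4.10), BAK1 (4.03), BCL2L11 (3.53), BCL2 (3.32) and BID (2.10). The list median was 3.31. At BCL2 and BID the −log10 q of the start region was 4.38 and 4.25, below the value of 5 used here as a stricter limit.

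The BHLHE40 summit at BAX fell on a CACGTG. It lay 93 bp before the start, at the first letter of the match that begins there, and the 3 other matches begin 138, 45 and 14 bp before the start. The GATA3 summit lay 183 bp before the start, 19 bp from the nearer GATA match and 90 bp from the BHLHE40 summit. Of 22199 RefSeq promoter entries of protein-coding genes, read over the 250 bases before the start on both strands, 7.37% held at least 1 CACGTG and 5 entries, of 5 genes, held at least 4. GATAA was present in 16.8% of entries. The looser E-box CANNTG, which includes CACGTG, was present in 58.1%. CACGTG was found in 10.1% of the 9411 entries with a BHLHE40 region (95% Wilson interval 9.46 to 10.7) and in 5.40% of the 12788 without one (5.02 to 5.81). GATAA was found in 16.1% of entries with a GATA3 region (15.0 to 17.2) and in 16.9% of those without (16.4 to 17.5). These intervals cover counting error only. The other family promoters followed no single pattern: the CACGTG before BID lay 217 bp from a BHLHE40 summit, that before BBC3 had no BHLHE40 region over it, BID also held a GATAA match 46 bp before its outermost start with no GATA3 region there, and the entries of BCL2, BCL2L1, BCL2A1, BCL2L11, PMAIP1 and BAK1 held neither CACGTG nor GATAA.

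**Figure D1:**
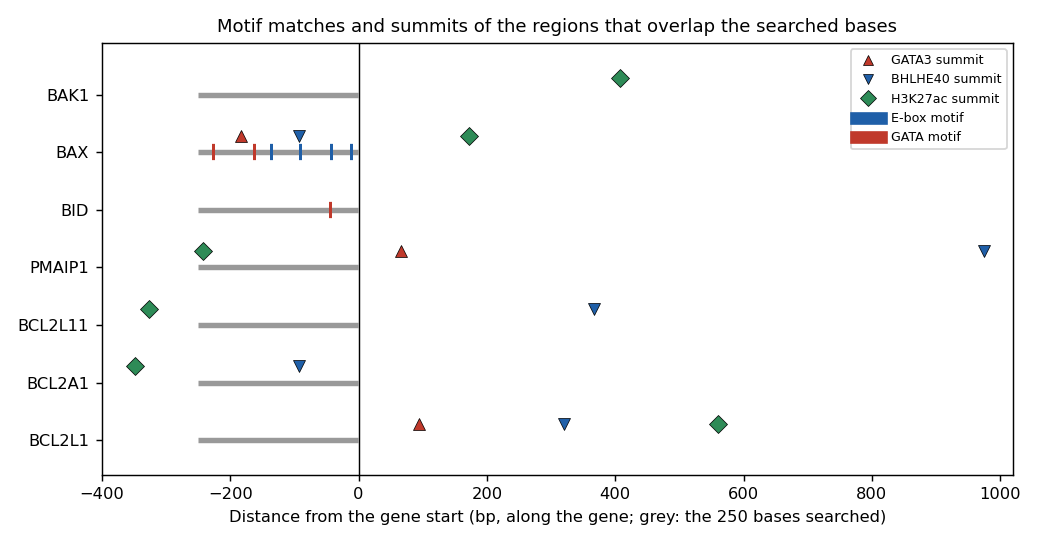
Distance from the gene start in bp along the gene (x axis) for the 7 genes with a RefSeq start at a record end (rows): the grey bar is the 250 bases searched, ticks on it are CACGTG (blue) and GATAA (red) matches, and symbols are the summits of regions that overlap the searched bases. BAX has both kinds of tick, with the BHLHE40 summit on the CACGTG 93 bp before the start, and BID has 1 GATAA tick and no region; at PMAIP1 the BHLHE40 summit is 975 bp after it.

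**Figure D2:**
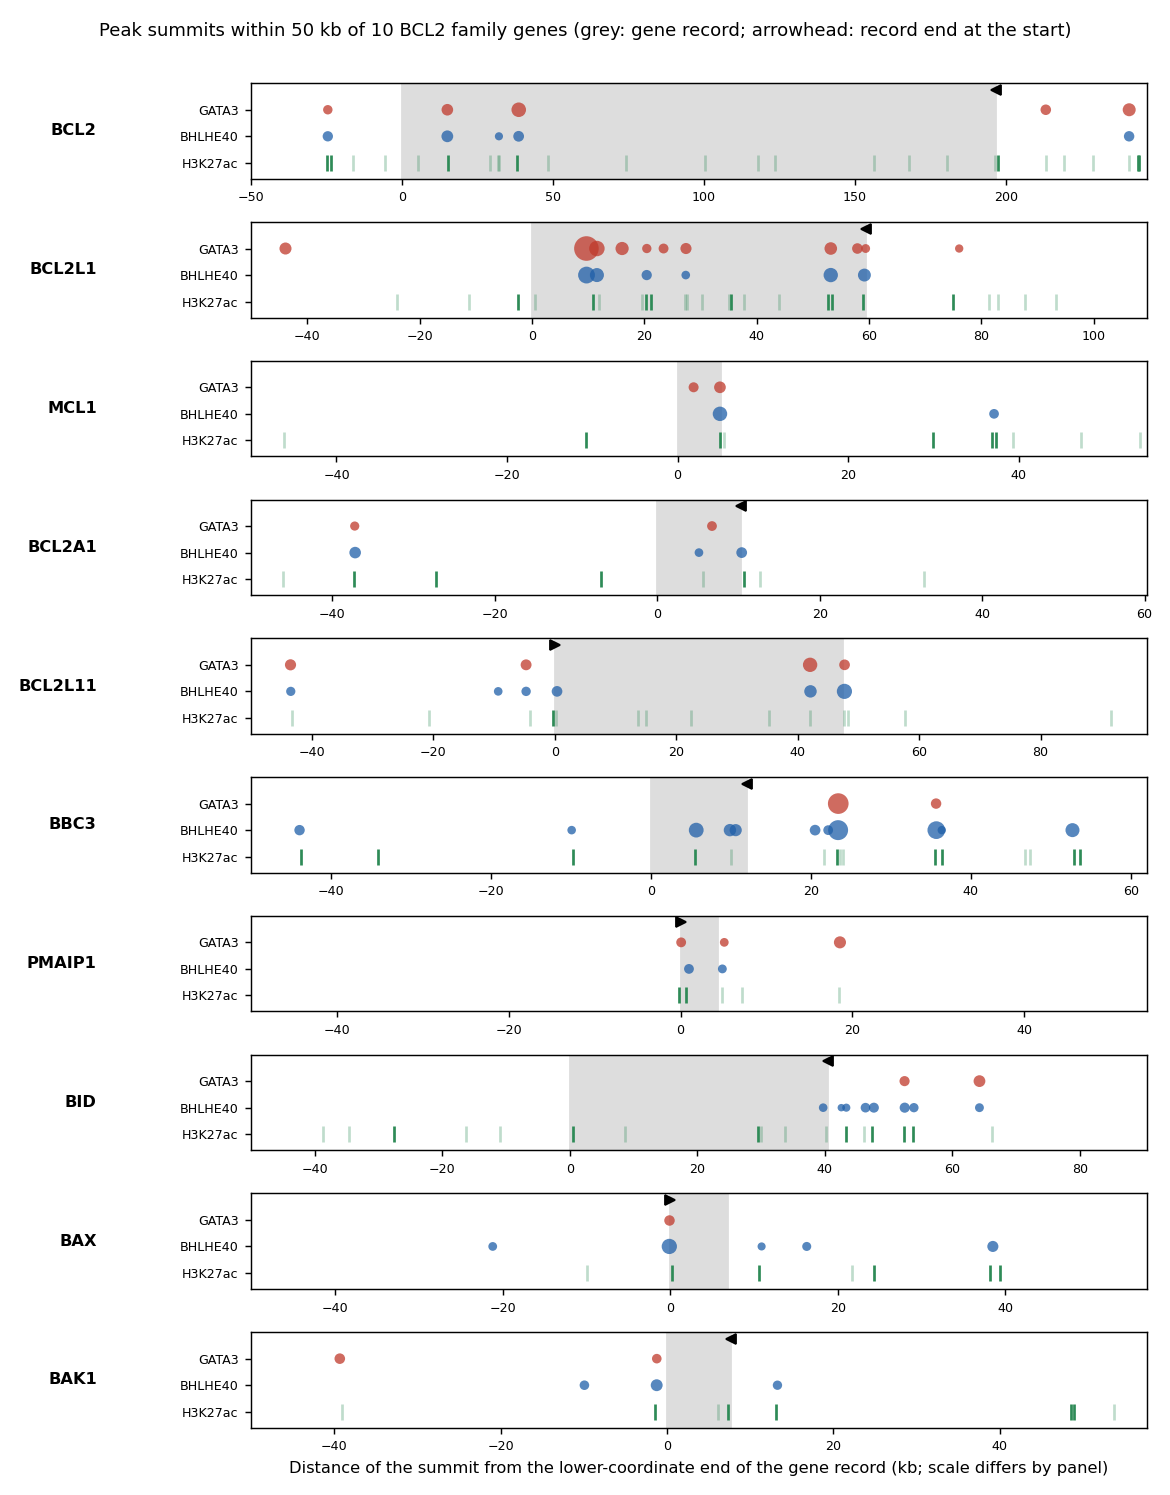
Summits of the regions of the 3 lists (rows in each panel) around the 10 genes (panels), by distance in kb from the lower-coordinate end of the gene record (x axis, scale differs by panel). Grey is the record, the arrowhead its end at the gene start, dots grow with the signal value and dark H3K27ac marks have a −log10 q of at least 5; 9 of 11 GATA3 summits lie in the BCL2L1 record, while BBC3 has 11 BHLHE40 and 2 GATA3 regions.

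BCL2L1, which encodes BCL-XL, had the most GATA3 regions of the 10 genes. Its record (chr20:31664452-31723963, minus strand) and flanks held 11 GATA3, 6 BHLHE40 and 24 H3K27ac regions. Only 1.72% of protein-coding genes had at least as many GATA3 regions, and 1.20% had at least its 6.90 per 100 kb. The summits of 9 GATA3 regions and all 6 BHLHE40 regions lay inside the record. The strongest GATA3 region of the 10 windows was here, at chr20:31673582-31674607, with a signal value of 79.7 and rank 504 of 29009. It overlapped BHLHE40 at chr20:31673769-31674577 with 34.9 (rank 939), the summits were 17 bp apart, and an H3K27ac region with 6.68 covered part of both. This place also lies in the record of LOC124904883, a lncRNA, and is 48725 bp after the nearest start.

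A second BCL2L1 place stood next to the first. GATA3 had 28.9 at chr20:31674930-31676402 and BHLHE40 22.9 at chr20:31674816-31676381, with summits 5 bp apart. The third-ranked GATA3 region (19.8, chr20:31680056-31680869) overlapped neither BHLHE40 nor H3K27ac. BHLHE40 had a further strong region, 24.1 at chr20:31717221-31718013, with GATA3 at 17.5 and summits again 5 bp apart, 5217 bp after the nearest start. By contrast, the region over the start was weak for GATA3 (6.37, rank 26301 of 29009) while its BHLHE40 partner was 2152 bp wide with 18.8. The same BHLHE40 region overlapped a GATA3 region of 11.1, whose summit lay 473 bp after the nearest start. Between these, GATA3 regions of 7.52 to 12.7 lay along the record, most of which is shared with the antisense lncRNA BCL2L1-AS1.

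BCL2 itself, the founding member and the gene with the longest record (chr18:63123346-63320090, minus strand), had factors only away from its start. Its window held 5 GATA3, 5 BHLHE40 and 26 H3K27ac regions in 296.7 kb. Per 100 kb, 38.3% of genes had at least as many GATA3 regions and 48.3% at least as many BHLHE40 regions. The factors met at 4 places, all on H3K27ac, with summits 3, 6, 31 and 27 bp apart from the lower to the higher coordinate. GATA3 was highest at chr18:63161628-63162204 inside the record (25.0, with BHLHE40 at 11.6). It had 19.0 at chr18:63363848-63364483 in KDSR, an enzyme gene of sphingolipid synthesis, with BHLHE40 at 10.7. BHLHE40 was highest at chr18:63138051-63138641 inside the record (14.8, with GATA3 at 14.2). The strongest H3K27ac of the window (7.84, chr18:63098115-63099311) lay 24815 bp beyond the end of the record, 1342 bp from the lncRNA LOC105372161, with GATA3 at 7.85 and BHLHE40 at 10.3. At the BCL2 start itself H3K27ac was 3.32 and neither factor had a region within 1 kb.

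MCL1 was covered end to end by 1 BHLHE40 region. MCL1 (chr1:150574558-150579610), a short-lived protein needed by many blood cells, lay wholly within chr1:150569972-150580100, a region of 10129 bp that ranked 21 by width in a list with 22 regions of 10 kb or more. Its signal value was 24.6 (rank 2038). Its summit was 2 bp from that of a GATA3 region with 14.6 (chr1:150578886-150579768), 79 bp from the higher end of the record, where H3K27ac had 7.64. A weaker GATA3 region (9.42, chr1:150575965-150576644) lay in the record under the same BHLHE40 region, 3090 bp from its summit. The only other factor region of the window was BHLHE40 with 8.57 at chr1:150611450-150611975. The window edge also passes through a BHLHE40 region (8.70) and an H3K27ac region (16.0) whose summits lie 369 and 162 bp inside it, in the neighbouring gene ENSA. These regions reach past the edge and are not counted.

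BCL2A1, an inducible survival gene of lymphocytes, had BHLHE40 without GATA3 at its start. The BHLHE40 region (chr15:79970952-79971624) had 11.6 and its summit lay 93 bp before the start, 68 bp from the CATGTG in the sequence above, which is a CANNTG match. H3K27ac there was 6.96. Inside the record (chr15:79960892-79971196, minus strand) a GATA3 region of 8.83 and a BHLHE40 region of 5.94 did not overlap each other or H3K27ac. The strongest place of the window was 37293 bp from the record at the gene ST20 and its antisense record ST20-AS1: H3K27ac with 13.0 (rank 953 of 113570), BHLHE40 with 14.2 over 3021 bp and GATA3 with 7.24.

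**Figure D3:**
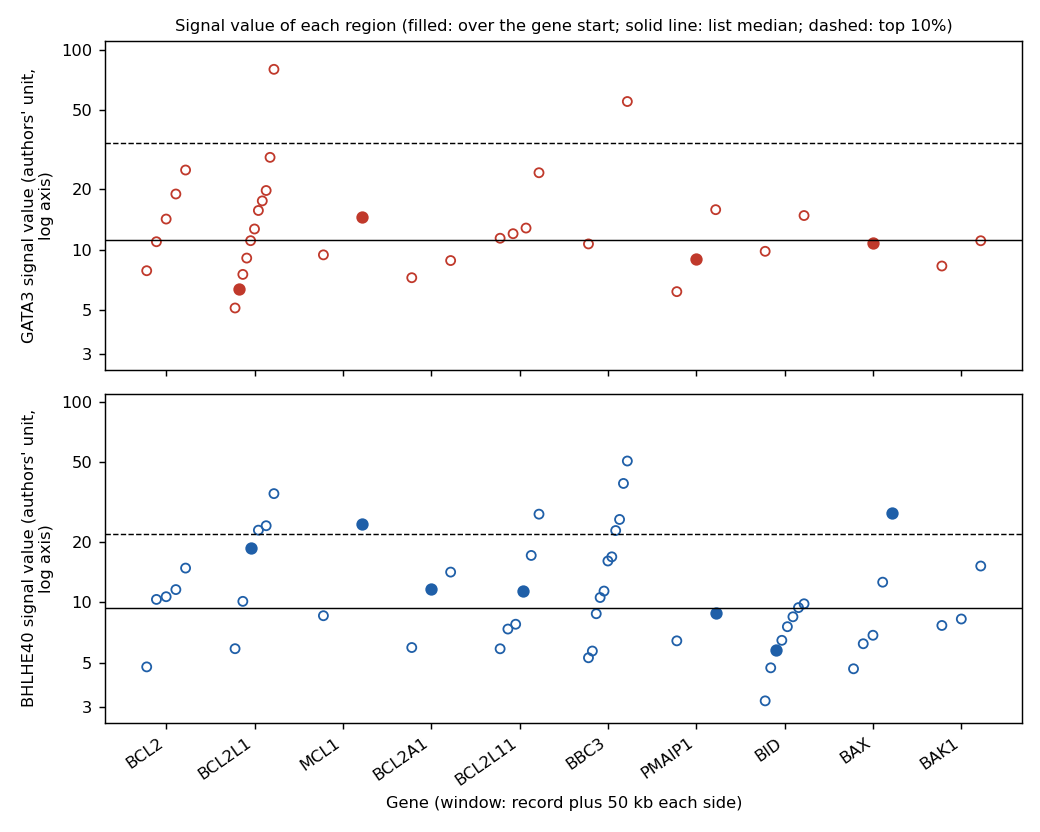
Signal value (y axis, log scale, authors' unit) of every GATA3 (upper panel) and BHLHE40 (lower panel) region in the windows of the 10 genes (x axis), in rising order within a gene and filled where the region is over the start. The solid line is the list median and the dashed line the value that the strongest 10% of the list exceed (34.1 for GATA3, 21.9 for BHLHE40), which GATA3 passed at BCL2L1 (79.7) and BBC3 (55.1) and BHLHE40 at 10 regions.

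Among the BH3-only genes, BBC3 had the most BHLHE40 regions. BBC3 encodes PUMA, and its window (record chr19:47220824-47232860, minus strand) held 11 BHLHE40, 2 GATA3 and 15 H3K27ac regions. Of all protein-coding genes, 1.77% had at least as many BHLHE40 regions and 0.599% at least its 9.82 per 100 kb. For GATA3 the share with at least as many per 100 kb was 35.5%. The strongest BHLHE40 region of the 10 windows was here, at chr19:47243911-47244941 with 50.9 (rank 353). It overlapped the second strongest GATA3 region of the 10 windows, chr19:47243937-47244627 with 55.1 (rank 1221), and the summits were 16 bp apart. This place is 11563 bp before the BBC3 start, 35 bp beyond the record of LOC124904731, and its H3K27ac was modest at 4.36.

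Another place in the BBC3 window, at a neighbouring gene, joined a strong BHLHE40 region to strong H3K27ac. At the lower-coordinate end of the CCDC9 record, BHLHE40 had 39.3 (chr19:47256038-47256752, rank 693), GATA3 10.7 and H3K27ac 13.1 (rank 912). The BHLHE40 summit was 11 bp from the CCDC9 record and 23654 bp from that of BBC3. Inside the BBC3 record BHLHE40 had 3 regions, 26.0 at chr19:47225685-47227965, 16.9 and 16.1, and GATA3 had none. The first of them spans the records of the microRNAs MIR3190 and MIR3191 and carried H3K27ac at 8.18. No list had a region over the BBC3 start, and the nearest of these BHLHE40 regions came within 1 kb of it.

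BCL2L11, which encodes BIM, had its strongest factor regions near the far end of its record (chr2:111120914-111168445, plus strand). BHLHE40 had 27.6 (chr2:111168215-111168965, rank 1611) with its summit 168 bp beyond the record, and GATA3 had 11.4 there with summits 23 bp apart. At chr2:111162722-111163336, inside the record, GATA3 had 24.3 and BHLHE40 17.2. Over the start BHLHE40 had 11.4 in a region of 2559 bp, and GATA3 had none. The other shared places lay in ACOXL, the neighbouring gene: GATA3 had 12.8 and 12.0 there, and BHLHE40 7.35 and 7.77. H3K27ac was weak throughout, with 14 regions of at most 4.03, of which 1, over the start, had a −log10 q of at least 5.

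PMAIP1 and BID had modest factor regions. At PMAIP1, which encodes NOXA (chr18:59899996-59904305, plus strand), the GATA3 region over the start had 8.95 with its summit 66 bp after the start. The BHLHE40 region had 8.85 with its summit 975 bp after the start, so the regions overlapped while the summits were 909 bp apart. The highest GATA3 value, 15.9, was at chr18:59918062-59918717, 14247 bp beyond the record, without BHLHE40. A last overlapping pair, 777 bp beyond the record for GATA3, had 6.17 for GATA3 and 6.42 for BHLHE40.

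BID, which links death receptors to the mitochondria, had 8 BHLHE40 regions, and 7.04% of genes had at least as many per 100 kb. The signal values of the 8 ran from 3.22 to 9.83, beside a list median of 9.35. The highest after 9.83 were 9.41 and 8.47, near LINC00528. Only the one over the start (5.80) was inside the record (chr22:17734138-17774665, minus strand). GATA3 had 2 regions, 14.8 at chr22:17798188-17798566 in MICAL3 and 9.82 at chr22:17786362-17786901 next to it, both overlapped by BHLHE40 (6.46 and 9.83). The strongest H3K27ac of the window, 7.33 with a −log10 q of 133, was in the lncRNA LINC00528, 2801 bp before the nearest BID start, with BHLHE40 at 4.70 and no GATA3.

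The effectors had few GATA3 regions, and none of the factor summits of either gene lay inside its record. Both records are short, 6.9 kb for BAX and 7.7 kb for BAK1. BAX (chr19:48954875-48961798, plus strand) had 1 GATA3 region, the one over its start. Of its 5 BHLHE40 regions, the next strongest were 12.6 at chr19:48992976-48994083 beside RUVBL2 and 6.84 in GYS1. FTL, the ferritin light chain gene, held a 2916 bp BHLHE40 region with 4.65 and H3K27ac at 7.27. BAK1 (chr6:33572552-33580276, minus strand) had only H3K27ac over its start. Its strongest place was just past the other end of the record: H3K27ac at chr6:33570883-33571920 had 15.8, the highest of all 134 and rank 450 of 113570, with BHLHE40 at 15.2 and GATA3 at 8.29 and summits of the factors 11 bp apart, 1227 bp from the record for GATA3. The remaining BAK1 regions were GATA3 with 11.1 in LOC107986537 and BHLHE40 with 8.25 in no record and 7.66 in GGNBP1.

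By total count, GATA3 was the more frequent factor only in the anti-apoptotic group, and there only through BCL2L1. The 4 anti-apoptotic genes had 20 GATA3 and 16 BHLHE40 regions, the 4 BH3-only genes 11 and 27, and the 2 effectors 3 and 8. Inside the records the counts were 14 and 11, 2 and 7, and 0 and 0. These counts are not scaled by length, and the records differ widely: 196.7 kb at BCL2, but 6.9 kb at BAX and 7.7 kb at BAK1. Per 100 kb of window, the group medians for GATA3 and BHLHE40 were 1.86 and 2.31, 2.25 and 4.88, and 1.40 and 3.73. Over all protein-coding genes the medians were 0.990 and 1.60, so BHLHE40 had the higher median there too. BCL2L1 gave 11 of the 20 GATA3 regions of the first group, so the higher GATA3 count there rests on 1 gene. BCL2 (5 GATA3 and 5 BHLHE40 regions) and MCL1 (2 and 2) had equal counts, and BCL2A1 (2 and 3) had more BHLHE40. BBC3 gave 11 of the 27 BHLHE40 regions of the second. There, BID (8 BHLHE40 and 2 GATA3 regions) and BCL2L11 (6 and 4) also had more BHLHE40, while PMAIP1 (2 and 3) did not. Many regions were nearer to another gene: 27 of 51 BHLHE40 regions and 14 of 34 GATA3 regions lay nearest to the record of a neighbour, among them 18 of the 27 BHLHE40 regions of the BH3-only genes. The same shares were not computed for the windows of other genes, so these are not shown to be unusual. A region's place in a window does not say which gene it acts on.

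Where GATA3 was found near these genes, BHLHE40 was usually found too. Of the 34 GATA3 regions, 26 (76.5%, 95% Wilson interval 60.0 to 87.6) overlapped BHLHE40, beside 48.7% of the whole GATA3 list and 51.0% of GATA3 regions within 50 kb of any protein-coding gene. In the other direction 24 of 51 BHLHE40 regions (47.1%, 34.1 to 60.5) overlapped GATA3, beside 53.0% and 50.9%. By group, 12 of 16, 10 of 27 and 2 of 8 BHLHE40 regions of the anti-apoptotic, BH3-only and effector genes overlapped GATA3. The difference between groups was not tested. Regions of 1 gene share their surroundings and are not independent, so the intervals describe counting only.

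Merged by overlap, the factor regions formed 59 places, of which 24 held both factors, 27 BHLHE40 alone and 8 GATA3 alone. Places were formed only in these windows, so no count of places has a share of the whole lists beside it. BBC3 had 9 of the places with BHLHE40 alone and BID 6, while BCL2L1 had 4 of those with GATA3 alone and 6 of those with both. Of the 7 places over a start, 4 held both factors, 3 BHLHE40 alone and none GATA3 alone. The summits of overlapping regions were close: over 26 GATA3 regions the median distance to the BHLHE40 summit was 25.5 bp (range 2 to 3090), and 69.2% were within 50 bp. In the whole list the median was 35 bp and 61.5% were within 50 bp.

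H3K27ac overlapped many factor regions of the family, and how many depends on how weak an H3K27ac region is counted. It overlapped 26 of 34 GATA3 regions (76.5%, 60.0 to 87.6), beside 49.1% of the whole list and 51.8% of GATA3 regions within 50 kb of any protein-coding gene. It overlapped 41 of 51 BHLHE40 regions (80.4%, 67.5 to 89.0), beside 76.4% and 77.8%. With only H3K27ac regions of a −log10 q of at least 5, the shares were 50.0% for GATA3 (34.1 to 65.9), beside 33.4% of the whole list, and 60.8% for BHLHE40 (47.1 to 73.0), beside 60.2%. Of the 24 places with both factors 22 carried the mark, as did 19 of 27 with BHLHE40 alone and 4 of 8 with GATA3 alone. Without the same counts over the whole lists, this order is not shown to be particular to these genes. Seen from the mark, 56 of 134 H3K27ac regions (41.8%) overlapped a factor, beside 26.4% of the list. Among the 54 with a −log10 q of at least 5, 35 (64.8%) did, which is below the 70.0% of such regions in the list.

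**Figure D4:**
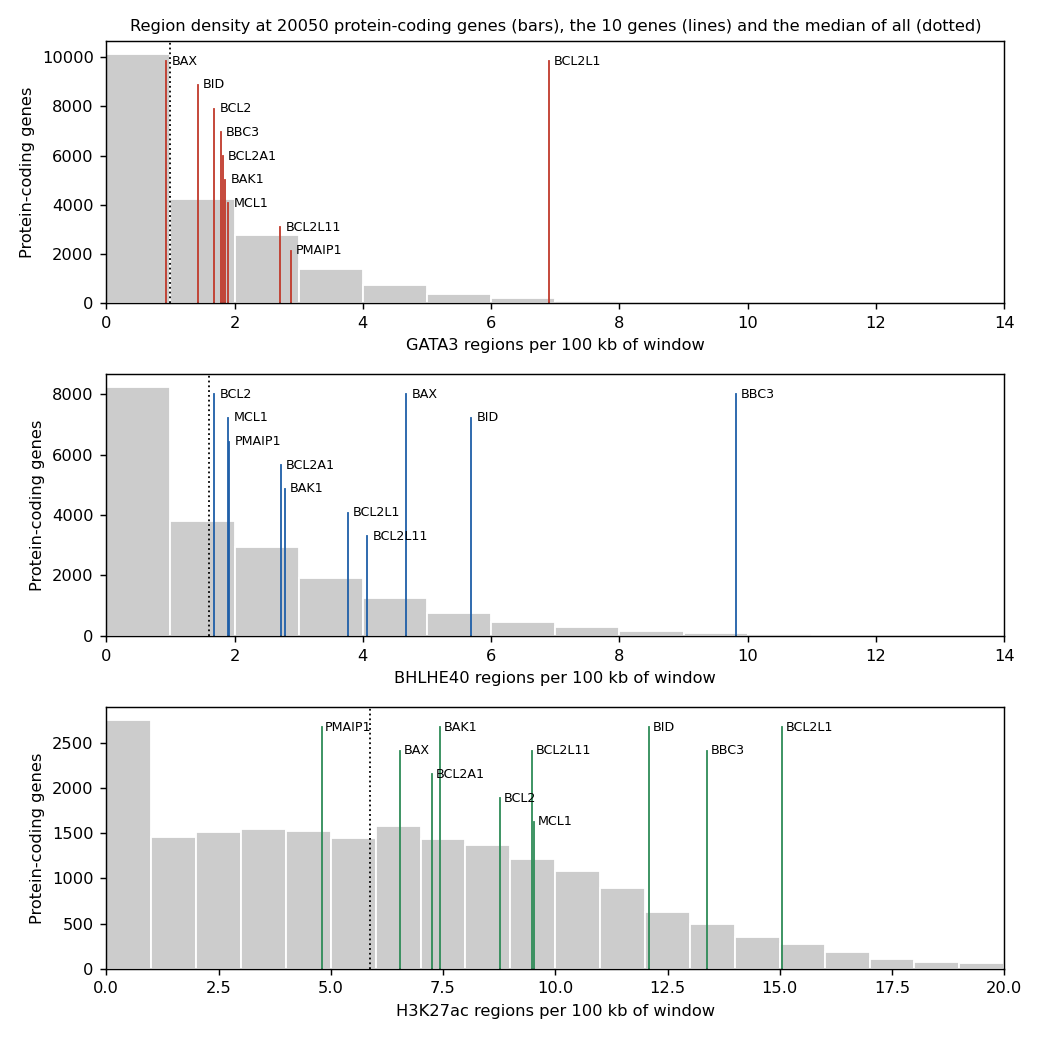
Number of protein-coding genes (y axis, grey bars) by regions per 100 kb of record plus 50 kb flanks (x axis), 1 panel per target, with a labelled line for each family gene (line heights carry no value) and a dotted line at the median of all genes. BCL2L1 (6.90) stands in the upper tail for GATA3 and BBC3 (9.82) for BHLHE40, and 1, 18 and 60 genes lie beyond the right edge of the GATA3, BHLHE40 and H3K27ac panels.

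As a group the windows held more regions per length than the typical gene. Every one of the 10 genes had at least 1 region of each list, as did 75.9%, 79.9% and 92.6% of protein-coding genes for GATA3, BHLHE40 and H3K27ac. The median family gene had 2 GATA3, 5 BHLHE40 and 12 H3K27ac regions, beside medians of 2, 2 and 8 over all genes. Per 100 kb the medians of the 10 genes were 1.83, 3.27 and 9.13, beside 0.990, 1.60 and 5.88. Of the 34 GATA3 regions 2 were in the strongest 10% of their list, and of the 51 BHLHE40 regions 10 were, where each whole list gives 10.0% by construction. The regions nearest to a window edge had signal values of 7.24 to 19.0 inside and 5.59 to 17.1 outside for GATA3. For BHLHE40 these were 6.42 to 18.8 and 7.13 to 24.0, and for H3K27ac 2.21 to 7.65 and 2.69 to 5.72.

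Related genes of the pathway were counted in the same way. Of 7 further family members (BCL2L2, BCL2L10, BOK, BAD, BIK, BMF and HRK), 6 had a GATA3 region and 6 a BHLHE40 region in the window, 3 had BHLHE40 over the start and none had GATA3 there. These counts are near the shares over all protein-coding genes for regions in the window (75.9% and 79.9%) and for BHLHE40 over the start (44.6%), and 19.0% of genes have GATA3 over the start. H3K27ac lay over the start of 3 of these 7, unlike the 9 of 10 above, beside 49.1% of all genes. The highest GATA3 values were in the windows of the BH3-only genes BAD (80.2), BIK (35.4) and HRK (23.3). The highest BHLHE40 values were in those of BAD (40.5), BMF (26.4) and BOK (20.9). Both BAD summits lay in its record. The others lay 6490 bp (BIK), 43285 bp (HRK), 33031 bp (BMF) and 42608 bp (BOK) from the record concerned. BCL2L10 had no region of either factor. Over the start, 44.6% and 49.1% of all genes have BHLHE40 and H3K27ac. Of other genes of apoptosis, APAF1, CYCS, CASP9, CASP8, DIABLO, HTRA2 and XIAP each had both there. CYCS, CASP8, DIABLO and HTRA2 also had GATA3 there, and APAF1, CASP9 and XIAP did not. Among these, the highest GATA3 value was 35.1 in the window of HTRA2 and 30.1 in that of DIABLO, and the highest BHLHE40 value was 23.7 in that of CASP9.

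The label T-cell line was checked by H3K27ac over the starts of marker genes. The mark lay over 9 of 10 T-cell genes, with CD3G as the exception, and over 2 of 3 genes of T-cell leukaemia lines (TAL1 and NOTCH1, not MYB). It lay over none of 4 myeloid and 4 epithelial genes, which include CD14 and EPCAM. Of the B-cell genes, CD79A had the mark within 1 kb of its start but not over it. The other B-cell genes and the erythroid genes are not reported here.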

How the data were processed

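The authors deposited 1 narrowPeak list each for GATA3, BHLHE40 and H3K27ac in Ctrl_LV cells, each standing for 2 samples. Per the submitters' processing notes, bcl2fastq 2.20, MACS2 and build hg38 were used; the aligner, filters and use of input are not given in the sources used here. The factor lists are named for an irreproducible discovery rate (IDR) of 0.05, so weak but repeatable regions stay in them, whereas the H3K27ac list, pooled by name, holds many weak ones. The deposited score ran from 540 to 1000 in the factor lists and was 10 times the −log10 p in the H3K27ac list. The signal value, the −log10 p-value and the −log10 q-value of each region are the authors' own, per peak, and served only to describe, rank or filter within 1 list. Read depth is unknown.

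Gene records came from the RefSeq table of GRCh38.p14 and starts from RefSeq promoter entries, which 9 of the 10 genes and 15843 of 20050 protein-coding genes have; for the others 250 bases on each side of both record ends were used. A region belonged to a window when it lay wholly inside it, and overlap meant at least 1 bp. No test was run. Named were all 10 genes, with counts, start regions and up to 3 strongest regions per factor list, and the neighbours these lie in. The members and gene lists were chosen with earlier results of these data known. Some listed genes are not reported here. Samples were grouped by title. Alternatives were other flanks, overlap rules, scores and q limits. Functions were tested on simulated regions (12 of 12 checks equal). Software was matplotlib 3.10.9, scipy 1.17.1, numpy 2.4.6 and pandas 2.3.3 under Python 3.11.15. Coordinates are 1-based.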

Additional observations from a re-analysis of the deposited data

How the results depend on the processing

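Of 37 alternatives to 10 results, 29 stayed within 1.5 times the count or within the counting interval of the share, and 8 moved. With flanks of 10 kb in place of 50 kb, the windows held 21 GATA3, 33 BHLHE40 and 72 H3K27ac regions, since the windows are shorter. A −log10 q of at least 5 left 54 H3K27ac regions. It lowered the share of GATA3 regions on H3K27ac to 50.0% and that of BHLHE40 regions to 60.8%, because weaker H3K27ac regions are left out. Where the summit had to lie inside the H3K27ac region, the shares were 55.9% and 56.9%. The cause was not tested. The counts of genes with a region over the start ranged from 6 to 8 for BHLHE40, from 3 to 4 for GATA3 and from 7 to 9 for H3K27ac. No paired analysis was possible because the 2 samples of a target share 1 list without values of their own. For the same reason no replicate could be left out. Depth is unknown, so a start without a listed region is not shown to be unbound.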
